A study of Homo sapiens with 7 samples.

Results

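The SETD7 peaks of vehicle-treated 22Rv1 cells were compared with the FOXA1 peaks of 22Rv1 cells that carry the hairpin shSETD7, as 2 of the 7 peak lists of the study. On chromosomes 1 to 22 and X the SETD7 list held 25363 peaks and the shSETD7 FOXA1 list 63682, together 89045 of the 464730 peaks in all lists. Peaks of the 2 lists that had 1 bp or more in common were called shared. This gave 3906 shared SETD7 peaks and 3928 shared shSETD7 FOXA1 peaks in 3960 overlapping pairs. The comparison asked whether SETD7 peaks met strong FOXA1 sites or the weak peaks near the floor of the FOXA1 list. Strength was read from the authors' score for each peak, which ranks peaks within a list only, with the lists cut into score deciles (1 the lowest, 10 the highest).

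Protein binding was mapped by ChIP-seq, in which crosslinked chromatin is immunoprecipitated and its DNA sequenced, in LNCaP and 22Rv1 (labelled CWR22-Rv1), both established human prostate cancer lines. Each group was 1 library, so no difference between groups was tested, and percentages carry 95% Wilson intervals that cover counting error only. SETD7 was mapped in 22Rv1 cells labelled vehicle, with an anti-SETD7 antibody and no hairpin stated. FOXA1 was mapped in 22Rv1 cells with shSETD7, with the control hairpin shCTL (named shNTC in the design text), and in cells labelled vehicle. In LNCaP cells FOXA1 was mapped after 4 hours with GSK2879552 (an LSD1 inhibitor), with GSK2879552 and PFI-2 (a SETD7 inhibitor), or with DMSO. The title of the combination sample names PFI-2, while its treatment label does not settle whether PFI-2 was added, so that list is called GSK2879552 plus PFI-2 by its title only. The hairpins were stably expressed, and neither the number of hairpins or clones nor the agent behind the 22Rv1 vehicle label is given in the sources used here. The SETD7 map and the shSETD7 FOXA1 map therefore came from differently labelled cells, and the SETD7 level left in shSETD7 cells was not analysed here.

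FOXA1 is a forkhead pioneer factor: it binds its sites in compact chromatin, opens them, and in prostate cells prepares enhancers for the androgen receptor. SETD7 is a SET-domain enzyme that adds a methyl group to lysines of histone H3 and of many other proteins. The study's title gives FOXA1 as a substrate of SETD7 in prostate cancer.

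Of the SETD7 peaks, 3906 of 25363, or 15.4% (15.0 to 15.8), overlapped a shSETD7 FOXA1 peak. The share of SETD7 peaks was 7.68% with the shCTL FOXA1 list (7.36 to 8.01) and 5.63% with the vehicle FOXA1 list (5.35 to 5.92). With the LNCaP lists it was 2.99% for GSK2879552, 2.72% for GSK2879552 plus PFI-2 and 2.53% for DMSO. The shSETD7 list thus met more SETD7 peaks than the shCTL list, by 7.72 percentage points (7.17 to 8.27, counting error only), although it was the shorter of the lists. This excess was 3.92 points (2.83 to 5.01) without chromosomes 1, 3, 7, 8 and 12, and 5.05 points (4.62 to 5.48) where overlap had to cover at least 50% of both peaks. When the shCTL and vehicle lists were cut to their 63682 highest scores, their shares were 5.90% (5.62 to 6.20) and 5.52% (5.25 to 5.81). Such a cut can only lower these shares. Counted from FOXA1, 3928 of 63682 shSETD7 peaks, or 6.17% (5.98 to 6.36), overlapped a SETD7 peak. It was 3.25% (3.08 to 3.44) without these 5 chromosomes and 3.66% (3.52 to 3.81) with overlap of at least 50% of both peaks, for which the SETD7 share was 9.19% (8.85 to 9.56). With the 1 bp rule that share was 2.39% of the shCTL peaks and 2.45% of the vehicle peaks. In LNCaP it was 1.30% of the GSK2879552 peaks, 0.879% of the GSK2879552 plus PFI-2 peaks and 0.846% of the DMSO peaks. The shSETD7 and shCTL lists had 1418 SETD7 peaks in common, while 2488 SETD7 peaks met the shSETD7 list alone of this pair and 530 the shCTL list alone. Whether the hairpin or another difference between the libraries, such as depth or enrichment, goes with this gap was not tested.

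Single sites show how unlike the matches were. The highest score was 84065 in shCTL, 35543 in shSETD7, 3392 in vehicle and 3636 in LNCaP DMSO. A lower score in another list is therefore not read as weaker binding. The highest score in the SETD7 list (116716) lay on chromosome 1 between 121484090 and 121485424 (hg19), and its shSETD7 partner, from 121484121 to 121485420, had the highest score among shared FOXA1 peaks (21747). The same place held a peak in the other 5 FOXA1 lists, with a score of 84065 in shCTL, 1531 in vehicle and 2169 in LNCaP DMSO. The next SETD7 scores, 73269 on chromosome 7 between 61968575 and 61970591 and 50338 on chromosome 10 between 42596799 and 42600431, were also at peaks of every list. Whether these places are FOXA1 sites or give high signal in any library was not tested. A different kind of match was found on chromosome 5. A SETD7 peak of score 2565, spanning 102374876 to 102375137 (262 bp), had a shSETD7 FOXA1 peak of score 1244 at 102374881 to 102375139, with midpoints 3.50 bp apart. A second, from 162746533 to 162746776 with a SETD7 score of 1858, met a shSETD7 peak of score 915 with midpoints 4 bp apart. Another, from 127940522 to 127940798 with a SETD7 score of 606, met a shSETD7 peak of score 787 with midpoints 17 bp apart. All 3 were narrow and stood at percentile 92.2 or higher of score in both lists. They were among the 5 best-ranked of 2254 pairs chosen for having no peak in the other 5 FOXA1 lists. Those 2254 pairs had median scores of 31 in the SETD7 list and 35 in the shSETD7 list. The remaining pairs of the 5, on chromosomes 4 and 12, had midpoints 348 and 354 bp apart.

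High-scoring shSETD7 FOXA1 peaks were present among the matches, some at weak SETD7 peaks. On chromosome 3 a shSETD7 FOXA1 peak of score 15220, from 39093189 to 39093721, was met at its edge by a SETD7 peak of score 17, from 39093609 to 39093922, with midpoints 310 bp apart. FOXA1 peaks stood there in every other list, with scores of 6433 in shCTL, 2825 in vehicle and 2189 in LNCaP DMSO. On chromosome 14 the SETD7 peak from 63002672 to 63003286 (score 1176) and the shSETD7 peak from 63002691 to 63003249 (score 16563) were centred 9 bp apart. That place had 16000 in shCTL, 340 in vehicle and 203 in GSK2879552 plus PFI-2, and no peak in LNCaP DMSO or GSK2879552. On chromosome 3 a SETD7 peak of score 979 from 77817787 to 77818609 lay 71.5 bp from a shSETD7 peak of score 6419. It was also a peak in shCTL (6315), vehicle (350), LNCaP DMSO (134) and GSK2879552 (132), but not in GSK2879552 plus PFI-2. The highest-scoring shSETD7 FOXA1 site was, however, away from SETD7. This peak (score 35543), on chromosome 15 from 69886732 to 69887457, and another (27135), on chromosome 2 from 242032657 to 242033274, had no SETD7 peak within 1 kb. Both were peaks of all 6 FOXA1 lists. Conversely, the SETD7 peak of score 2381 on chromosome 10, from 38881466 to 38882435, had no shSETD7 peak within 1 kb but met peaks of the other 5 FOXA1 lists, with scores of 987 in shCTL and 189 in vehicle.

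By SETD7 score, the match was strongest at the top of the list. From decile 1 to decile 10 of SETD7 scores, 9.38%, 9.74%, 11.3%, 11.9%, 11.8%, 14.0%, 14.0%, 14.2%, 16.9% and 40.8% of the peaks overlapped a shSETD7 FOXA1 peak. Decile 10 exceeded decile 1 by 31.4 points (29.1 to 33.6). The difference was 58.4 points (54.5 to 62.0) without chromosomes 1, 3, 7, 8 and 12, with deciles cut anew among the remaining peaks. With the deciles of the whole list, the other chromosomes had 51.2% in decile 10 and 4.99% in decile 1. The scores were close to each other below the top decile: decile 1 spanned 13 to 17, decile 9 spanned 43 to 58, and decile 10 spanned 58 to 116716. Decile 10 supplied 1034 of the 3906 shared SETD7 peaks, or 26.5% (25.1 to 27.9), so most shared SETD7 peaks had scores of 58 or less. The median SETD7 score was 35.5 for shared peaks and 26 for peaks not shared. The top decile was also the one with the highest share in the other lists, at 33.3% for shCTL, 22.6% for vehicle and 10.2% for LNCaP DMSO. In decile 1 it was 4.02% for shCTL, 3.43% for vehicle and 1.81% for LNCaP DMSO.

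**Figure D1:**
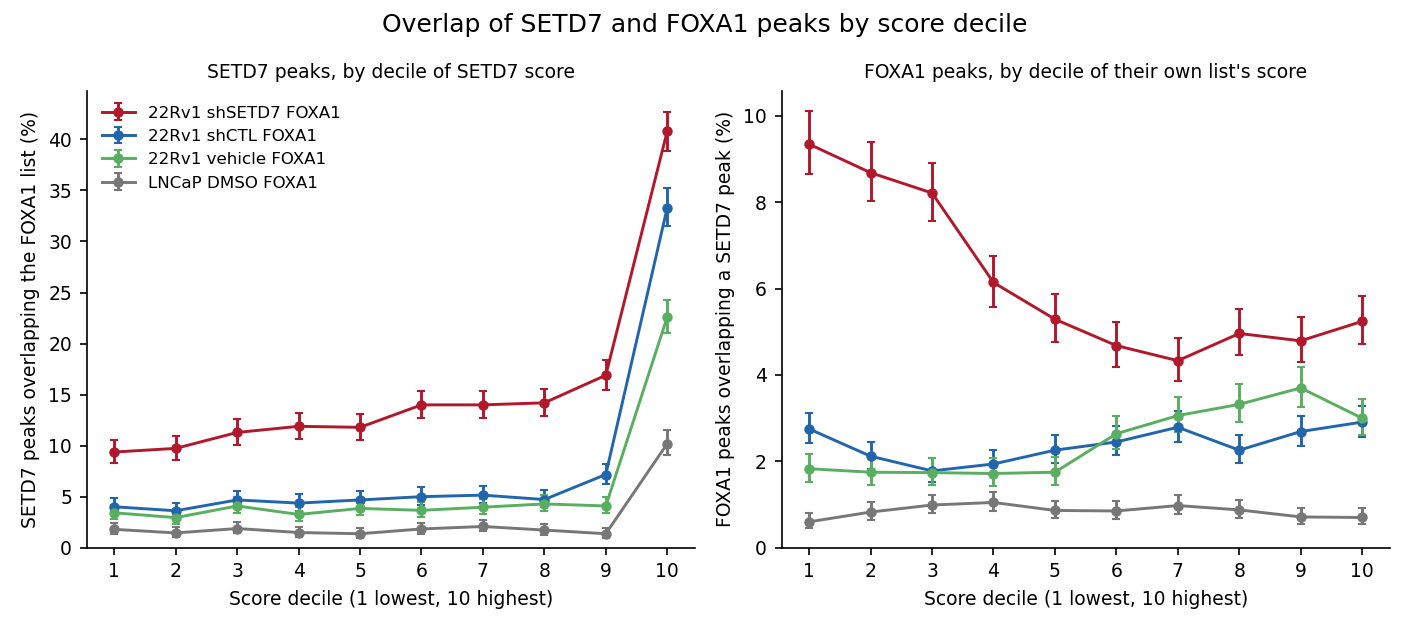
Left, percentage of SETD7 peaks in each decile of SETD7 score that overlap the named FOXA1 list; right, percentage of FOXA1 peaks in each decile of their own score that overlap a SETD7 peak; bars are 95% Wilson intervals for counting error. The shSETD7 line is the highest in every decile of both panels, reaches 40.8% in SETD7 decile 10, and on the right lies at 9.34% in decile 1 and 5.24% in decile 10.

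By FOXA1 score the order was the other way round. From decile 1 to decile 10 of shSETD7 scores, 9.34%, 8.68%, 8.21%, 6.14%, 5.29%, 4.68%, 4.33%, 4.96%, 4.79% and 5.24% of the FOXA1 peaks overlapped a SETD7 peak. Decile 1, with scores of 13 to 27, was matched more often than decile 10, with scores of 614 to 35543, and the difference of decile 10 minus decile 1 was -4.10 points (-5.00 to -3.20). Of the 3928 shared FOXA1 peaks, 61.1% (59.5 to 62.6) lay in the lower-scoring 50% of the list, 42.5% in deciles 1 to 3 and 24.3% in deciles 8 to 10. The median shSETD7 score was 57 for shared peaks and 84 for peaks not shared. In the other 22Rv1 lists decile 1 was not matched more often than decile 10. Decile 10 minus decile 1 was 0.156 points for shCTL (-0.348 to 0.660) and 1.17 points for vehicle (0.643 to 1.70). For LNCaP DMSO it was 0.100 points (-0.153 to 0.356). The shCTL share did not rise steadily: it was 2.75% in decile 1, lowest at 1.78% in decile 3, and 2.91% in decile 10. Decile 1 spanned scores of 13 to 43 in shCTL, 13 to 39 in vehicle and 40 to 100 in LNCaP DMSO. Whether it holds equally weak peaks in each list cannot be told from the scores. The shSETD7 difference was -3.09 points when tied scores were ranked in reverse genome order, and -2.29 points (-3.00 to -1.59) with overlap of at least 50% of both peaks. Without chromosomes 1, 3, 7, 8 and 12, and with deciles cut anew, it was -0.108 points with an interval of -0.979 to 0.762 that spans 0. Leaving out the peaks found in all 7 lists gave -7.11 points. Every peak so removed was a shared one, and 318 of the 388 shSETD7 peaks were in deciles 8 to 10. That removal itself lowers the share in the top deciles.

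The mix of FOXA1 scores differed between the top decile of SETD7 and the deciles below it. SETD7 peaks of decile 10 formed 1085 pairs, spread over the FOXA1 scores: 26.2% were with shSETD7 deciles 1 to 3, 42.6% with deciles 4 to 7 and 31.2% with deciles 8 to 10. SETD7 peaks of deciles 1 to 9 formed 2875 pairs, of which 48.5% were with shSETD7 deciles 1 to 3, 29.7% with deciles 4 to 7 and 21.9% with deciles 8 to 10. The pairs with weak FOXA1 peaks also became more frequent within SETD7 deciles 1 to 9: those with shSETD7 deciles 1 to 3 numbered 99 in SETD7 decile 1 and 209 in decile 9, and those with shSETD7 deciles 8 to 10 numbered 57 in SETD7 decile 1 and 87 in decile 9. For partners in SETD7 deciles 1 to 9, the share of shSETD7 peaks matched was 3.33% in shSETD7 decile 10 and 7.99% in decile 1, a difference of -4.66 points (-5.47 to -3.87). For partners in SETD7 decile 10 the matched share was 1.92% in shSETD7 decile 10 and 1.35% in decile 1, a difference of 0.566 points (0.125 to 1.01). Over the 3960 pairs the scores of both partners had a Spearman rho of 0.15, and over the 2875 pairs of SETD7 deciles 1 to 9 a rho of -0.06. These correlations describe pairs within 1 pair of libraries and carry no test.

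**Figure D2:**
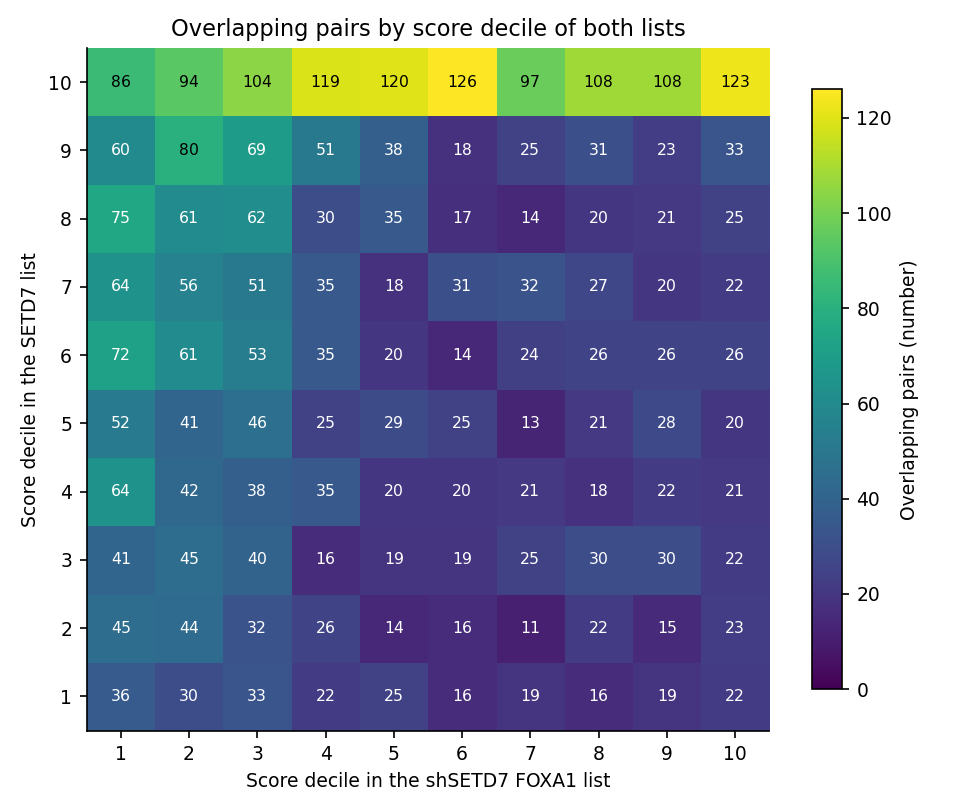
Number of overlapping pairs for each score decile of the SETD7 list (vertical axis) and of the shSETD7 FOXA1 list (horizontal axis), 3960 pairs in all. The top row, SETD7 decile 10, holds 86 to 126 pairs per cell at every FOXA1 decile, while below it the fullest cells are in FOXA1 deciles 1 to 3.

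Whether a shared shSETD7 peak was a site of FOXA1 in other samples was read from the other 5 FOXA1 lists, which the overlap rule did not use. Of all shSETD7 peaks, 58.2% were found again in shCTL, 43.7% in vehicle, 33.3% in GSK2879552, 35.6% in GSK2879552 plus PFI-2 and 34.8% in LNCaP DMSO, and 33.7% were found in none of them. Shared peaks were found again less often than peaks not shared. In shCTL it was 39.7% (38.2 to 41.2) of shared peaks against 59.4% (59.0 to 59.8) of peaks not shared, and in vehicle 32.3% against 44.4%. In LNCaP DMSO it was 14.1% against 36.2%. No other list held 53.7% of the shared peaks (52.1 to 55.2) and 32.4% of the others (32.0 to 32.7).

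The lower scores of the shared FOXA1 peaks went with only part of this gap. Weighted to the score deciles of the shared peaks, the peaks not shared were found again at 51.4% in shCTL, 38.1% in vehicle and 31.4% in LNCaP DMSO. The shared peaks lay 11.8 points below the first of these values. They were the lower group in 10 of 10 deciles for shCTL and for LNCaP DMSO, and in 8 of 10 for vehicle. In decile 1, 6.22% of shared peaks and 13.5% of peaks not shared were in shCTL. In decile 6 it was 44.0% of shared peaks and 66.8% of the others, and in decile 10 98.8% of shared peaks and 99.1% of the others. For LNCaP DMSO a gap was seen at the top as well, with 69.2% of shared and 82.7% of other peaks of decile 10 found again. In that decile the shared peaks numbered 334, of which 3 were in no other FOXA1 list. The weighting was by score alone and not by chromosome. Chromosomes 1, 3, 7, 8 and 12 held 69.7% of the shared shSETD7 peaks and 40.7% of the others. Without them, 52.4% (49.6 to 55.3) of the shared peaks were in shCTL.

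**Figure D3:**
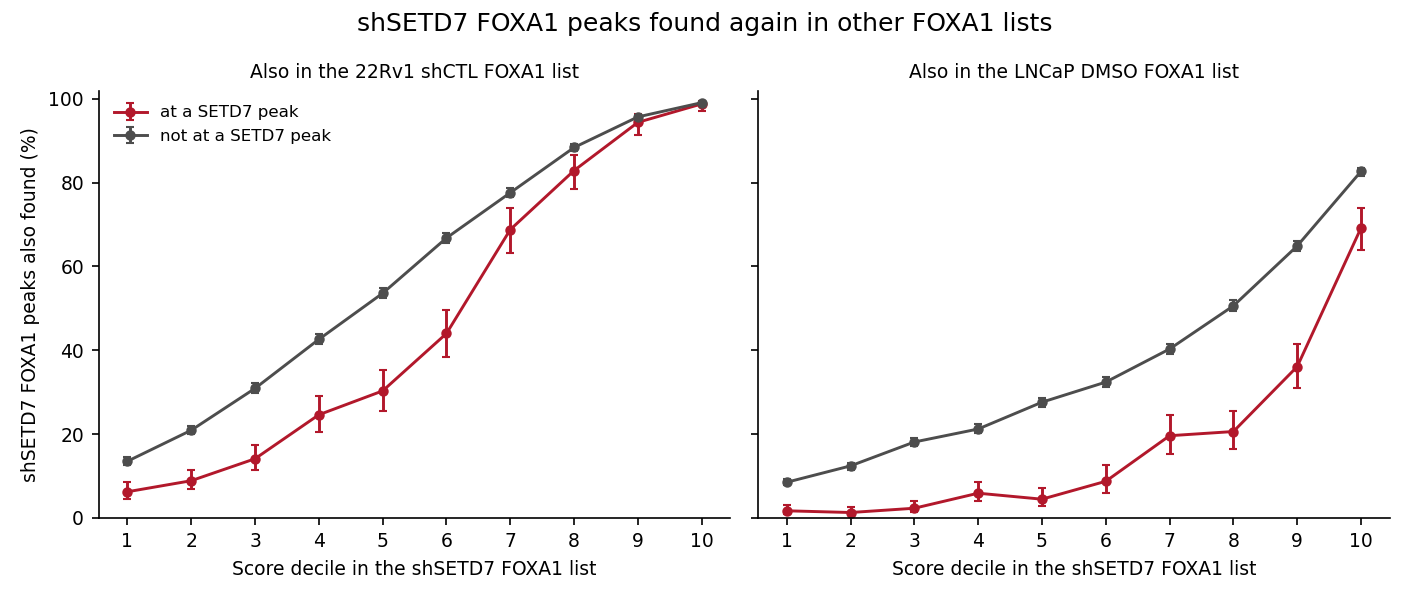
Percentage of shSETD7 FOXA1 peaks that overlap a peak of the shCTL list (left) or the LNCaP DMSO list (right), by decile of shSETD7 score, for peaks at a SETD7 peak and peaks not at one; bars are 95% Wilson intervals for counting error. Peaks at SETD7 lie below the others in all 10 deciles of both panels, and in decile 10 the left panel closes to 98.8% and 99.1%.

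The same measurement can be read from the FOXA1 side. Of the 21447 shSETD7 peaks in none of the other 5 lists, 9.83% (9.44 to 10.2) were at a SETD7 peak. The share was 6.28% for peaks in 1 other list, 5.50% in 2, 3.98% in 3, 3.01% in 4 and 2.71% (2.46 to 2.99) for the 14304 peaks in all 5. So the FOXA1 sites common to both lines and all treatments were met by SETD7 least often. Among these common sites the share grew with score, from 0.871% in shSETD7 deciles 1 to 3 and 1.75% in deciles 4 to 7 to 3.23% in deciles 8 to 10. Among peaks in no other list it was 10.6% in deciles 1 to 3, 8.38% in deciles 4 to 7 and, over 418 peaks, 9.33% (6.90 to 12.5) in deciles 8 to 10. From the SETD7 side, 57.5% of the shared SETD7 peaks (55.9 to 59.0) met none of the other 5 FOXA1 lists, and 8.17%, or 319 peaks, met all 5. Over all SETD7 peaks the first of these shares was 90.2%, and for those not shared it was 96.2%. Without chromosomes 1, 3, 7, 8 and 12 it was 41.9% (39.1 to 44.8) of the shared SETD7 peaks.

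Combining both scores gave groups of pairs that differed by degrees. The largest group was 1393 pairs of SETD7 deciles 1 to 9 with shSETD7 deciles 1 to 3, with median scores of 31 in the SETD7 list and 27 in the shSETD7 list. Of their FOXA1 peaks, 6.03% were found again in shCTL (4.90 to 7.41), 3.95% in vehicle and 1.58% in LNCaP DMSO, and 90.8% were in no other FOXA1 list. The 853 pairs of SETD7 deciles 1 to 9 with shSETD7 deciles 4 to 7 lay between, with 34.2% of their FOXA1 peaks in shCTL (31.1 to 37.5), 29.0% in vehicle, 8.44% in LNCaP DMSO and 51.2% in no other list. Another 629 pairs joined SETD7 deciles 1 to 9 with shSETD7 deciles 8 to 10, with median scores of 26 and 426. Here 93.3% of the FOXA1 peaks were found again in shCTL, 86.6% in vehicle and 41.7% in LNCaP DMSO. In the 1085 pairs of SETD7 decile 10, 56.3% of the FOXA1 peaks were in shCTL, 40.2% in vehicle and 18.7% in LNCaP DMSO. Of these, the 339 pairs with shSETD7 deciles 8 to 10 were in shCTL at 89.7%, and 40.1% of them were in all 5 other lists. The 284 pairs with shSETD7 deciles 1 to 3 were in shCTL at 26.8%, against 6.03% for weak FOXA1 peaks at weaker SETD7 peaks. Over both SETD7 groups, the pairs with shSETD7 deciles 8 to 10 numbered 968, or 24.4% of all pairs, and 629 of them were at SETD7 peaks below the top decile.

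Overlapping peaks cannot have distant midpoints, so the distances within pairs are a description that the overlap rule limits. The absolute distance between midpoints had a median of 114 bp, with quartiles of 41.5 and 226 bp, and 46.0% of the pairs were within 100 bp and 70.5% within 200 bp. At least 50% of both peaks was covered in 2332 of the 3960 pairs. The signed distance had a median of -0.500 bp, so the midpoints were not displaced to one side. Shared boundaries were rare, with 30 pairs at the same start and 4 at the same start and end. The tightest pairs were those of SETD7 decile 10, with a median of 68.5 bp. For SETD7 deciles 1 to 9 the median was 106 bp with shSETD7 deciles 1 to 3, 140 bp with deciles 4 to 7 and 176 bp with deciles 8 to 10. The median width of those weak FOXA1 peaks was 333 bp, and that of the strong ones was 478 bp. With the other lists the median distance of overlapping pairs was 122 bp for shCTL, 165 bp for vehicle and 189 bp for LNCaP DMSO.

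The distances also give a local background, because peaks that share only a region would be about as frequent a few kb away as at the same place. Midpoint pairs within 200 bp were counted and divided by the number that pairs 2 to 5 kb apart would give over the same length. For the shSETD7 list 2790 pairs lay within 200 bp against a local level of 302, a ratio of 9.25 (8.82 to 9.70, counting error). The ratio was 3.22 for shCTL, 2.59 for vehicle and 1.09 (0.979 at the lower limit) for LNCaP DMSO. Without SETD7 decile 10 it was 8.17 (7.73 to 8.63) for shSETD7, 1.97 for shCTL, 1.93 for vehicle and 0.646 for LNCaP DMSO. SETD7 decile 10 alone gave 13.4 for shSETD7, 9.04 for shCTL, 4.98 for vehicle and 4.34 for LNCaP DMSO. Over shSETD7 score the ratio was 13.1 in decile 1, 8.01 in decile 5, 6.54 in decile 7 and 9.19 in decile 10. Weak FOXA1 peaks were therefore aligned with SETD7 peaks beyond the local peak density, and strong ones were too. Midpoint alignment of this kind does not tell binding of both proteins at a site from signal that both libraries share there, and their part in the result was not tested.

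**Figure D4:**
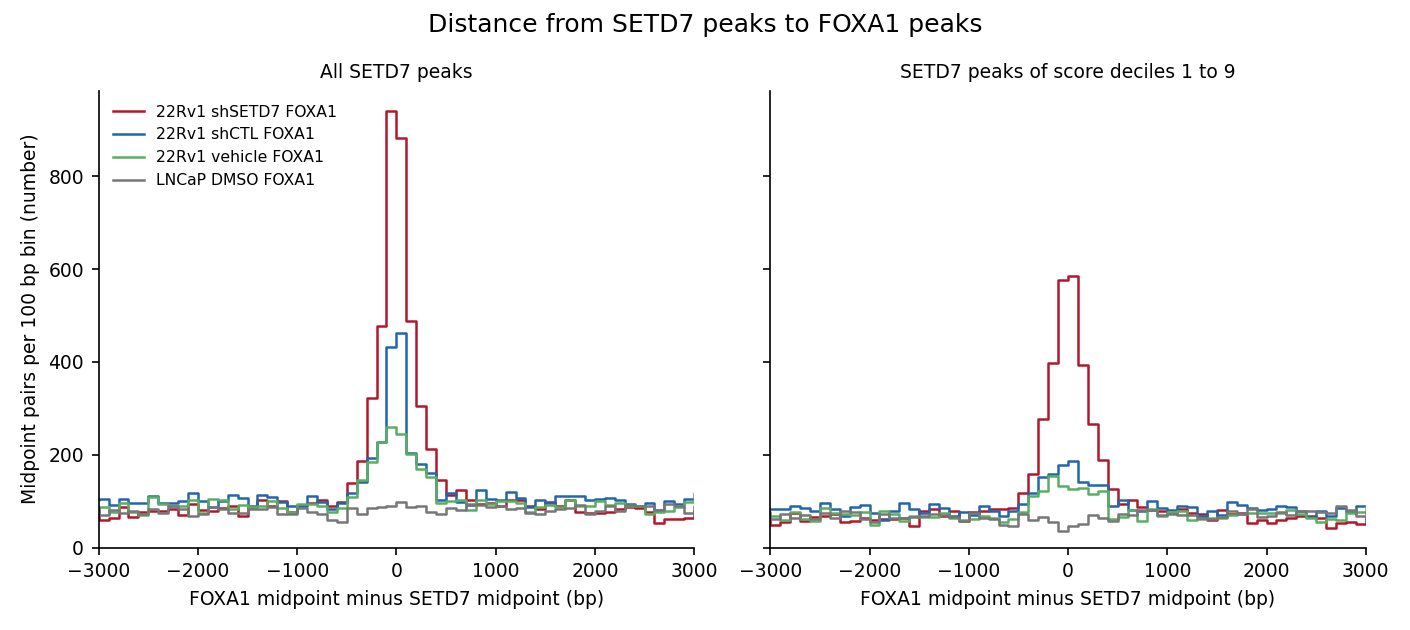
Number of SETD7 and FOXA1 midpoint pairs per 100 bp of distance (FOXA1 midpoint minus SETD7 midpoint, in bp), for all SETD7 peaks (left) and for SETD7 score deciles 1 to 9 (right), in 4 FOXA1 lists. The shSETD7 list has the tallest central peak in both panels, with 9.25 times its local level within 200 bp for all SETD7 peaks and 8.17 times for deciles 1 to 9, while LNCaP DMSO is at 1.09 and 0.646 times.

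Wide peaks were shared more often in both lists. For SETD7 the share was 7.20% at widths up to 250 bp, 9.83% at 250 to 300 bp, 12.3% at 300 to 400 bp, 20.3% at 400 to 600 bp, 38.0% at 600 to 1000 bp and 68.6% above 1000 bp. For shSETD7 the shares in the same bands were 4.70%, 5.07%, 5.62%, 6.83%, 8.86% and 16.6%. Shared SETD7 peaks had a median width of 412 bp against 315 bp for those not shared, and shared shSETD7 peaks 390 bp against 355 bp. A wide peak overlaps others more easily, so the score trends were read again within widths. Among SETD7 peaks of 300 to 400 bp, 9.79% of decile 1 and 26.2% of decile 10 were shared. Among shSETD7 peaks of 300 to 400 bp it was 9.85% of decile 1 and 4.07% of decile 10, and among those of 400 to 600 bp 12.3% and 4.60%. An exception was seen for the narrowest strong FOXA1 peaks, since 10 of the 30 shSETD7 peaks of decile 10 with 300 bp or less were shared, or 33.3% (19.2 to 51.2). A group of 30 peaks gives a wide interval, and the share of such peaks in decile 9 was 7.07%.

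The shared share differed widely between chromosomes. The highest shares of SETD7 peaks that were shared were on X (34.8%, 47 of 135), 21 (30.6%) and 22 (20.8%), and the lowest were on 14 (8.48%) and 15 (8.64%). SETD7 decile 10 made up 48.1% of the SETD7 peaks on X, 32.6% on 21 and 21.6% on 22. Within decile 10, 50.8% were shared on X and 51% on 21, against 51.2% over all chromosomes but 1, 3, 7, 8 and 12. In deciles 1 to 9 it was 20% on X and 20.8% on 21, against 8.51%. For shSETD7 peaks the share was 13.5% on chromosome 1, 13.2% on 21, 10% on 8, 8.69% on 3, 8.51% on 12 and 7.99% on 7. No other chromosome exceeded 4.68%. Chromosomes 1, 3, 7, 8 and 12, a set taken over from an earlier look at these data, held 70.0% of the shared SETD7 peaks and 70.3% of those not shared. They held 69.7% of the shared shSETD7 peaks (68.2 to 71.1) and 40.7% of those not shared. In the largest group of pairs, SETD7 deciles 1 to 9 with shSETD7 deciles 1 to 3, they held 83.3%. Over all pairs of SETD7 deciles 1 to 9 they held 81.3%, against 72.4% of all SETD7 peaks of those deciles. Among pairs of SETD7 decile 10 they held 39.0%, against 51.2% of all SETD7 peaks of that decile.

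**Figure D5:**
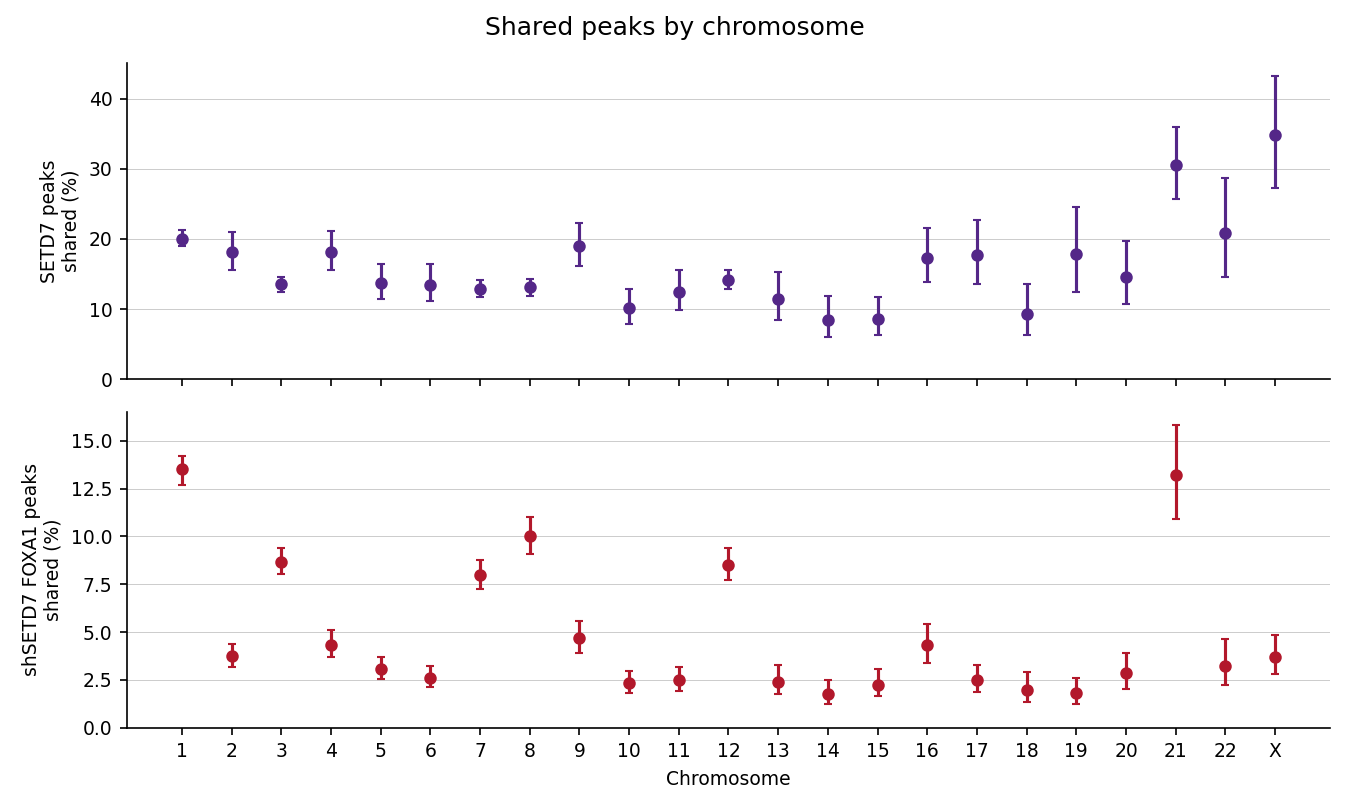
Percentage of SETD7 peaks (top) and of shSETD7 FOXA1 peaks (bottom) that are shared, by chromosome, with 95% Wilson intervals for counting error. SETD7 peaks are shared most on X and 21 (34.8% and 30.6%), and shSETD7 peaks on 1, 21 and 8 (13.5%, 13.2% and 10%).

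The higher share of weak FOXA1 peaks at SETD7 was seen mostly on those chromosomes. There the matched share of shSETD7 peaks was 14.3% in decile 1 (13.2 to 15.5) and 7.96% in decile 10 (6.96 to 9.10). On the other chromosomes it was 3.72% in decile 1 (3.10 to 4.46) and 3.52% in decile 10 (2.98 to 4.14), within the intervals of each other. With wider bands the shares on the other chromosomes were 3.87% (3.50 to 4.28) in deciles 1 to 3 and 2.98% (2.69 to 3.30) in deciles 8 to 10. These intervals do not overlap, so a smaller excess of weak peaks was seen there too. Deciles 1 to 3 had the higher share on 5 of the 5 chromosomes of the set and on 11 of the other 18. The trend with SETD7 score was seen throughout: decile 10 had a higher share than deciles 1 to 9 on 23 of 23 chromosomes. It was 30.8% in decile 10 against 14.1% in deciles 1 to 9 on the 5 chromosomes, and 51.2% against 8.51% on the others. Over all SETD7 peaks the alignment of midpoints was near equal, at 9.25 times the local level on the 5 and 9.24 times on the others. For shCTL it was 2.29 and 5.32 times. Without SETD7 decile 10 the shSETD7 ratio differed, at 8.79 (8.26 to 9.35) on the 5 chromosomes and 6.30 (5.58 to 7.11) on the others.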

How the data were processed

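The study deposited 1 peak list per ChIP-seq library. The submitters' processing notes name build hg19 and MACS2 2.1.4, SAMtools 1.9, BWA 0.7.17-r1188 and FastQC 0.11.9. Their settings, and whether an input was used, are not stated there. Each deposited peak has a whole-number score, the authors' own value, whose definition is not given and which was used only to rank peaks within a list. Read depth is unknown from these lists. All 65093 peak names of the vehicle FOXA1 list carry the tag siNTC, which its labels do not mention. All 25363 SETD7 names carry the tag default, and all 63682 shSETD7 and 83633 shCTL names a folder tag that the other lists lack; whether these mark different calling settings is not given.

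Chromosome Y was left out (163 SETD7 and 270 shSETD7 peaks). Groups came from sample titles. Deciles were equal counts of score ranks, with ties in genome order. Overlap counts were checked against bedtools 2.31.1 (the same 3906 and 3928 peaks) and tested on simulated data. Shares have Wilson intervals and differences Newcombe intervals. Python 3.11.15, numpy 2.4.6, pandas 2.3.3 and matplotlib 3.10.9 were used.

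Named sites were the 5 highest-scoring pairs by each list, the 5 best-ranked pairs in no other FOXA1 list, the 5 in shCTL, vehicle and LNCaP DMSO but not all lists, and the 3 strongest peaks of each list without a partner within 1 kb, of which examples are given. The lists and rules were chosen with earlier results of these data known. The difference between hairpin lists, the local level and the removal of SETD7 decile 10 were added after seeing the data. Gene annotation and sequence of hg19 were not used here.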

Additional observations from a re-analysis of the deposited data

How the results depend on the processing

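Of 50 alternatives run over 9 results, 11 stayed within the counting interval of the reported value, 39 moved beyond it and 0 changed sign. A change of sign was possible only for the differences, because shares and ratios cannot be negative. The interval of 1 of these, the decile difference by shSETD7 score without 5 chromosomes, spans 0. With equal numbers the SETD7 share could not move, since the shSETD7 list was kept whole. Where peaks were left out, deciles were cut anew among those kept. Requiring reciprocal overlap of at least 50%, 9.19% of SETD7 and 3.66% of shSETD7 peaks were shared. Decile 10 minus decile 1 was then 25.9 points by SETD7 score and -2.29 by shSETD7 score. Of the shared shSETD7 peaks 33.5% were in shCTL. Of the shared SETD7 peaks 68.9% were in no other FOXA1 list, and the excess over shCTL was 5.05 points. With midpoints within 200 bp the shares were 11.0% and 4.38%, and the SETD7 decile difference was 26.3. The lower-scoring 50% then held 63.5% of the shared FOXA1 peaks, and 34.5% of the shared FOXA1 peaks were in shCTL. Of the shared SETD7 peaks 63.4% were in no other FOXA1 list, and the excess was 5.76. Without chromosomes 1, 3, 7, 8 and 12, 3.25% of shSETD7 peaks were shared, and the decile differences were 58.4 and -0.108 (-0.979 to 0.762). The lower-scoring 50% then held 55.5% of the shared FOXA1 peaks, and 52.4% of them were in shCTL. Of the shared SETD7 peaks 41.9% were in no other list, and the excess was 3.92 points. Without peaks found in every list (319 SETD7 and 388 shSETD7 peaks) the shares were 14.0% and 5.56%, and the decile differences 26.4 and -7.11. All peaks so removed were shared ones, so both shares had to fall. The lower-scoring 50% then held 67.3% of the shared FOXA1 peaks, and 32.9% of the shared FOXA1 peaks were in shCTL. Of the shared SETD7 peaks 63.3% were in no other FOXA1 list. The 13916 shSETD7 peaks in all 5 other FOXA1 lists that were not shared stayed in. With peaks of 1 kb or less the shares were 14.4% and 5.69%, and the SETD7 decile difference was 25.0 points. Of the shared shSETD7 peaks 37.7% were then in shCTL, and of the shared SETD7 peaks 59.4% were in no other FOXA1 list. Reversing ties gave -3.09 points by shSETD7 score. With equal numbers of peaks the excess over shCTL was 9.50 points. Only shCTL lost peaks in that comparison, so the excess could not shrink. Without SETD7 decile 10, chosen after seeing the data, 65.8% of the shared FOXA1 peaks were in the lower-scoring 50%, 33.4% were in shCTL, and midpoint pairs were 8.17 times the local level. Over all SETD7 peaks, midpoint pairs within 100 bp were 12.1 times the local level. The cause was not tested. No paired analysis was possible because each group is 1 library.

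Depth, input and antibody background cannot be read from the lists, and SETD7 was mapped in cells labelled vehicle while the shSETD7 FOXA1 peaks came from hairpin cells. A library that stands apart from the others cannot be told apart from the effect of its hairpin.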

Other observations

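Shared SETD7 peaks lay in 1186 windows of 1 Mb, and the 10 fullest windows held 315 of them, or 8.06%. The fullest was chromosome 1 from 142 to 143 Mb, where 41 of 81 SETD7 peaks met a shSETD7 FOXA1 peak, 15 of the shared peaks were also in shCTL and 4 in LNCaP DMSO. The window of chromosome 1 from 145 to 146 Mb followed with 39 of 83, and that of chromosome 21 from 10 to 11 Mb with 37 of 93. The window of chromosome 4 from 49 to 50 Mb held 32 of 78, of which 20 were also in vehicle and 18 in GSK2879552. SETD7 decile 10 gave between 6 and 27 of the shared peaks in these 10 windows. Whether these windows give high signal in any library was not tested.

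Of the LNCaP lists, GSK2879552 had the closest alignment with SETD7, with midpoint pairs within 200 bp at 1.80 times the local level, against 1.09 for GSK2879552 plus PFI-2 and for DMSO. Without SETD7 decile 10 the ratio was 1.01 for GSK2879552, 0.614 for GSK2879552 plus PFI-2 and 0.646 for DMSO.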
